A study of Mus musculus with 31 samples.

Results

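The 8 genes Hmgcs1, Idi1, Fdps, Fdft1, Sqle, Lss, Cyp51 and Sc5d encode enzymes of cholesterol synthesis. They were found in the count tables of 3 mouse fat depots by matching each RefSeq accession to a gene symbol and keeping, for a symbol with several rows, the row with the highest total count. All 8 had a row with counts, of 16852 genes in the tables, and no measured difference entered the rule.

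Cholesterol is built from acetyl-CoA by way of mevalonate, activated isoprene units, squalene and lanosterol, the first sterol of the route. Most of its enzymes are under the control of SREBP-2, a membrane-bound transcription factor that is cut free when sterols in the endoplasmic reticulum run low and that binds sterol regulatory elements, often beside sites for NF-Y and Sp1. Fat tissue holds a large store of free cholesterol in its lipid droplets and membranes, much of it taken up from lipoproteins.

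Libraries came from interscapular brown (iBAT), inguinal white (iWAT) and epididymal white (eWAT) adipose tissue of male C57BL/6J mice aged 8 weeks, and the labels name no transgene, deletion or drug. Every mouse was first acclimated at thermoneutrality for 8 days. Mice of the day 0 groups were then killed without cold, and the others after 2 or 4 days at 4 °C. The 31 libraries formed 9 groups: iBAT with 3, 4 and 3 libraries at days 0, 2 and 4, iWAT with 4, 3 and 5, and eWAT with 3 at each day. The labels do not say whether a library is 1 animal or a pool, so p-values measure the spread between these libraries only, which may be partly technical. RNA came from whole tissue, so fewer cells of a type and less RNA per cell cannot be told apart.

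Total counts ranged from 1577168 to 3756389 in iBAT, 1502823 to 5527239 in iWAT and 3193060 to 4033224 in eWAT. Adipoq, the adipocyte hormone adiponectin, was at 378 CPM (the gene's counts relative to the scaled library size) or more in every library, and Ucp1, the uncoupling protein of brown fat, had a mean of 7483 CPM in iBAT, 212 CPM in iWAT and 8.02 CPM in eWAT at day 0. Lep, the hormone leptin, had a mean of 17.8, 38.7 and 141 CPM in that order. In iBAT539 (day 2) and iBAT548 (day 4) low counts were scarce, with 159 and 57 features at a count of 1, so a missing value there is not shown to be a count of 0. Libraries also spread within groups: the first principal component of a depot's within-group deviations held 43.7% to 54.2% of their variance. A library's position on such an axis, found in the other 2 depots, is called its library score. A gene passed the test where edgeR's adjusted p was under 0.05 over all genes tested, which were 8270 in iBAT, 9574 in iWAT, 10043 in eWAT and 11041 in the fit of all depots.

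The sequence around the start site was held for 5 of the 8 genes in RefSeq on build GRCm38.p6, and 3 are shown, since Hmgcs1 carries 2 of the 3 differences that passed the test and Idi1 and Sc5d were the members whose libraries separated by day in eWAT. Each runs 5′ to 3′ on the gene's own strand, from 250 bases before to 50 after the start. Capitals mark matches on either strand to TCACNCCAC, a sterol regulatory element-like motif, or to CCAAT, the NF-Y motif, which reads ATTGG on the other strand. Hmgcs1 lies at chr13:119690101-119690400 on the plus strand, Idi1 at chr13:8885356-8885655 on the plus strand and Sc5d at chr9:42264251-42264550 on the minus strand.
Hmgcs1: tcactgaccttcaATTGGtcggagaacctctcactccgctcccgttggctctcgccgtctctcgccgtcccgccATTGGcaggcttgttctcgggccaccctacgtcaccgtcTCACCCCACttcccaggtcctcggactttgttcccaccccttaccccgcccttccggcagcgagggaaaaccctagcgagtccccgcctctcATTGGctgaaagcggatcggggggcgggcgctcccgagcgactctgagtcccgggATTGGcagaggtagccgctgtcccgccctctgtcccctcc
Idi1: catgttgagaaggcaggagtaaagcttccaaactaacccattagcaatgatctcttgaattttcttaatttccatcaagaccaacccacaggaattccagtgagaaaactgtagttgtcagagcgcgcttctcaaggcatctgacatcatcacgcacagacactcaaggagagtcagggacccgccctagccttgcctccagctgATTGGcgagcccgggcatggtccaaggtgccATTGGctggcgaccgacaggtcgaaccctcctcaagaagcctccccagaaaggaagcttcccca
Sc5d: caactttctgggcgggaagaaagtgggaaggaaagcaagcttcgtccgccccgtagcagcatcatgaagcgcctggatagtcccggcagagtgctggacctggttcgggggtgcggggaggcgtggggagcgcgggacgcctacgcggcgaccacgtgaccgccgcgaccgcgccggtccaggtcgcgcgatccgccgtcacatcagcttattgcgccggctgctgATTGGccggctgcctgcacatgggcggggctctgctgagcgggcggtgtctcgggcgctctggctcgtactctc

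Of the 5 windows, that of Hmgcs1 alone held TCACNCCAC, as TCACCCCAC 137 bases before the start. This motif occurred in 1.24% of all 32851 RefSeq promoters of that length. CCAAT was present in each of the 5, with 4 matches in Hmgcs1, 2 in Idi1 and 1 each in Lss, Cyp51 and Sc5d, and in 37.4% of all promoters. The Sp1 motif GGGCGG was also present in each, with 3 matches in Hmgcs1 and 4 in Sc5d, and in 35.7% of all promoters. The E-box CACGTG was found in Sc5d, 98 bases before the start, and in 7.15% of all promoters. These are matches of letters, and binding was not measured.

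Compared per transcript length, Hmgcs1 had the highest level of the 8 genes at day 0 in each depot and Fdft1 the second. In iBAT these were 138 and 59.5 CPM per kb, in iWAT 36.9 and 17.9, and in eWAT 78.8 and 26.6. Idi1, Sqle, Cyp51 and Sc5d lay between 4.55 and 14.5 CPM per kb in the 3 depots at day 0. Lss and Fdps were the lowest in each, at 0.302 CPM per kb or less. Of the 8 genes 6, all but Fdps and Lss, passed the filter on low counts in every fit.

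Hmgcs1 (NM_145942, chr13:119690351-119708260) encodes cytosolic HMG-CoA synthase, an early enzyme of the mevalonate part of the route. In iBAT its level was 494, 465 and 475 CPM in the 3 libraries of day 0, then 1989, 583, 744 and 1544 CPM at day 2, and 1111, 492 and 661 CPM at day 4. All 4 day 2 libraries lay above day 0, where the libraries were close together, while the day 4 range overlapped day 0. The log2 change was 1.44 (SE 0.51, adjusted p = 0.278) at day 2 and 0.80 (SE 0.52, adjusted p = 0.83) at day 4. Without iBAT539 and iBAT548 these were 1.26 and 0.30. The 6 of 6 brown adipocyte markers summed to 8769 to 10907 CPM in iBAT at day 0, 20512 to 45539 CPM at day 2 and 33096 to 35313 CPM at day 4, none of them at 0, and their part in the iBAT results was not tested.

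In iWAT Hmgcs1 started from the lowest level of the 9 groups, 134, 173, 118 and 86.7 CPM at day 0. It stood at 542, 590 and 386 CPM at day 2 and at 679, 527, 510 and 206 CPM in 4 libraries of day 4, with iWAT548 between the upper 2 of these. Every cold library lay above every day 0 library, and iWAT555 was the lowest of day 4. The log2 change was 1.96 (SE 0.42) at day 2 and 1.95 (SE 0.39) at day 4. Neither passed edgeR's test over 9574 genes (adjusted p = 0.247 and 0.46), with unadjusted p of 0.000352 and 0.000181. DESeq2, run on the same counts, called both (adjusted p = 0.000899 and 6.21e-05), and edgeR called day 4 without iWAT555.

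Over the same days the summed level of 6 of 6 brown adipocyte markers in iWAT ranged from 88.7 to 1405 CPM at day 0, from 3761 to 9191 CPM at day 2 and from 751 to 10595 CPM at day 4, with all 6 detected in each group. The 7 of 8 lymphocyte markers with a row summed to 1492 to 2598 CPM at day 0, 2345 to 2657 CPM at day 2 and 787 to 2586 CPM at day 4 in iWAT, against at most 42.8 CPM in any library of the other depots. The median summed level of 5 other marker lists was lower in both cold groups of iWAT than at day 0, and none of their genes passed the test. The 9 of 9 skeletal muscle markers with a row summed to 35.7 to 2272 CPM at day 0, 19.5 to 56.1 CPM at day 2, with Myh4 at 0, and 22.6 to 1043 CPM at day 4. The 6 of 6 Schwann cell markers summed to 152 to 582, 67.6 to 157 and 101 to 330 CPM on those days, with Prx at 0 on each. The 6 of 6 epithelial markers summed to 15.7 to 119, 5.68 to 8.71 and 1.76 to 57.3 CPM, and the 7 of 8 macrophage markers to 206 to 475, 82.5 to 323 and 75 to 311 CPM. The 5 of 6 testis and epididymis markers summed to 5.59 to 782, 2.98 to 16.3, with Odf1 at 0, and 1.11 to 2185 CPM. Of these, 4 were tested, and at day 4 the log2 change was positive for 3, with a median of 0.85. The part of these markers in the Hmgcs1 result was not tested.

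In eWAT Hmgcs1 was at 259, 275 and 285 CPM at day 0, at 474, 274 and 509 CPM at day 2 and at 263, 282 and 663 CPM at day 4. The groups overlapped, with 1 library of day 2 and both lower libraries of day 4 inside the day 0 range. The log2 changes were 0.63 (SE 0.47) and 0.54 (SE 0.47), and without eWAT553 the day 4 value was -0.03.

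Idi1 (NM_145360, chr13:8885606-8892396) encodes isopentenyl diphosphate isomerase, which interconverts the 2 isoprene units. In eWAT it was at 29.6, 19.1 and 43.0 CPM at day 0, at 79.0, 60.5 and 47.2 CPM at day 2 and at 30.2, 21.2 and 27.1 CPM at day 4. The day 2 libraries lay above those of both other days. The log2 difference was 1.03 (SE 0.41, adjusted p = 1) for day 2 against day 0 and -1.28 (SE 0.41, adjusted p = 0.823) for day 4 against day 2. In iBAT it was at 21.6, 53.8 and 29.6 CPM at day 0, 36.0, 45.1, 129 and 111 CPM at day 2 and 91.3, 19 and 29.4 CPM at day 4. These overlapped on all 3 days, with log2 changes of 1.29 (SE 0.68) and 0.58 (SE 0.70) against day 0. The day 4 value was -0.50 without iBAT548, the highest library of that day. In iWAT the library values spanned 15.3 to 61.3 CPM at day 0, 32.3 to 61.4 CPM at day 2 and 24.7 to 115 CPM at day 4, overlapping throughout, with log2 changes of -0.08 (SE 0.57) and 0.77 (SE 0.50).

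Within groups Idi1 moved with the library score, at a correlation of 0.81 in eWAT and 0.97 in iBAT, and the mean score was highest at day 2 in both depots (0.29 in eWAT and 0.20 in iBAT). With the score as a covariate the Idi1 value for day 2 against day 0 was 0.80 (SE 0.32, adjusted p = 1) in eWAT and 0.36 (SE 0.32, adjusted p = 0.688) in iBAT, and that for day 4 against day 2 in eWAT was -0.87 (SE 0.34, adjusted p = 0.999).

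Fdps (NM_001253751, chr3:89093588-89101967), farnesyl diphosphate synthase, supplies farnesyl groups both to squalene and to protein prenylation. It had 14 counts in all over the 31 libraries and none in 24 of them, on the 1 of its 2 RefSeq transcripts that has a row. A count of 0 allows up to 3 counts, or 0.4 to 2.3 CPM depending on the library, for counting error only. With so few counts no depot or day could be compared.

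Fdft1 (NM_010191, chr14:63145150-63181687) encodes squalene synthase, the first step committed to sterols. Its iBAT libraries stood at 222, 285 and 154 CPM at day 0, at 78.0, 81.4, 33.9 and 48.9 CPM at day 2 and at 181, 92.3 and 150 CPM at day 4. Day 2 was thus below day 0 and below day 4 in every library, the one member lower at day 2 than at day 0 in iBAT. The log2 difference was -1.79 (SE 0.41, unadjusted p = 0.00103, adjusted p = 0.131) at day 2 and -0.52 (SE 0.44, adjusted p = 0.861) at day 4, each against day 0. DESeq2 called the day 2 value (adjusted p = 0.00456). The other alternatives kept its sign and none of them called it, the value without both sparse libraries being -1.73 (adjusted p = 0.0922). Day 4 against day 2 gave 1.27 (SE 0.41, adjusted p = 0.986).

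The 9 of 9 skeletal muscle markers with a row, each detected in every iBAT group, summed to 13371 to 42054 CPM in iBAT at day 0, 6161 to 9515 CPM at day 2 and 3309 to 17226 CPM at day 4, so they moved with Fdft1 between days 0 and 2. Fdft1 also overlaps Ctsb, a lysosomal protease gene, and strand use in counting is not given in the sources used here. Ctsb was at 1629 ± 509 CPM (SD, n = 3) in iBAT at day 0 and at 1588 ± 556 CPM (SD, n = 4) at day 2, a log2 change of 0.06 (SE 0.56). The part of muscle RNA in the Fdft1 result was not tested.

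In the white depots the Fdft1 groups overlapped on all days. In iWAT its libraries spanned 33.6 to 102 CPM at day 0, 47.6 to 78.2 CPM at day 2 and 34.7 to 115 CPM at day 4. In eWAT they spanned 61.8 to 136, 45 to 119 and 62.2 to 129 CPM. The 4 log2 changes against day 0 lay between -0.35 and -0.02.

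Sqle (NM_009270, chr15:59315092-59331193) encodes squalene epoxidase, the second control point of the route. In iBAT it was at 11, 12.7 and 13.9 CPM at day 0 and at 79.6, 49.2, 38.8 and 29.9 CPM at day 2. At day 4 it was at 48.3 and 51.7 CPM, and iBAT548 had no value. Apart from that library every cold library was above day 0. The log2 change was 2.04 (SE 1.01, adjusted p = 0.437) at day 2 with the missing value entered as 0, and 2.19 without the sparse libraries iBAT539 and iBAT548, where it passed edgeR's test (adjusted p = 0.0312). Without iBAT548 alone it also passed, at 2.04 (adjusted p = 0.041). Day 4 against day 0 gave 1.43 (SE 1.03, adjusted p = 0.849), and 2.02 (adjusted p = 0.119) without both.

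In iWAT Sqle was at 14, 9.48, 0.592 and 31 CPM at day 0, at 61.3, 46.0 and 34.2 CPM at day 2 and at 15.9, 5.11, 13.3, 13.6 and 27.6 CPM at day 4. The day 2 libraries lay above all those of the other days, and days 0 and 4 overlapped. The log2 difference was 1.72 (SE 0.73, adjusted p = 0.462) for day 2 against day 0, 0.13 (SE 0.65) for day 4 against day 0 and -1.59 (SE 0.69, adjusted p = 0.779) for day 4 against day 2. In eWAT the 3 days overlapped, with libraries from 6.84 to 65.0, from 1.47 to 45.8 and from 21.0 to 77.1 CPM.

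Lss (NM_146006, chr10:76531565-76557139), lanosterol synthase, closes squalene epoxide into the first sterol ring system. It had 131 counts in all and 0 to 17 in any library, which left each group mean between 0.47 and 2.64 CPM with SDs of 0.399 to 2.04 CPM. Values were missing in iBAT539, iBAT548 and iBAT550 and were entered as 0, so the lowest mean, in iBAT at day 4, rests on iBAT555. Lss did not pass the filter, and no difference was detectable at this depth.

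Cyp51 (NM_020010, chr5:4080674-4104697) encodes lanosterol 14-alpha demethylase, the first step after lanosterol. In iBAT it was at 31.7, 29.0 and 34.1 CPM at day 0, 58.9, 57.0, 35.9 and 42.1 CPM at day 2 and 40.7, 29.4 and 48.5 CPM at day 4. In iWAT it was at 14.6, 42.8, 24.3 and 25.1 CPM at day 0, 45, 52.8 and 44.0 CPM at day 2 and 17.2 to 56.2 CPM at day 4. At day 2 every library of both depots lay above its own day 0 group, by narrow margins of 35.9 against 34.1 CPM in iBAT and 44.0 against 42.8 CPM in iWAT. The log2 changes at day 2 were 0.69 (SE 0.35, adjusted p = 0.443) in iBAT and 0.79 (SE 0.44, adjusted p = 0.528) in iWAT. All 6 changes against day 0 were positive, from 0.30 to 0.79, and none passed the test. The eWAT libraries, from 30.3 to 56.0 CPM at day 0, overlapped with both cold groups.

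Sc5d (NM_172769, chr9:42251592-42264300), sterol C5-desaturase, acts near the end of the route. In iBAT it was at 37.4, 48.1 and 36.1 CPM at day 0, at 65.0, 87.1, 134 and 86.2 CPM at day 2 and at 70.8, 81.9 and 75.5 CPM at day 4. All 7 cold libraries lay above day 0. The log2 change was 1.28 (SE 0.35, adjusted p = 0.183) at day 2 and 1.00 (SE 0.37, adjusted p = 0.573) at day 4, and DESeq2 called day 2 (adjusted p = 0.0195). Without iBAT539 and iBAT548 they were 1.28 and 0.99.

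In iWAT Sc5d was at 32.3, 51.1, 59.2 and 43.3 CPM at day 0, at 107, 102 and 56.2 CPM at day 2 and at 66.8, 275, 114, 163 and 58.1 CPM at day 4. Each cold group reached down into the day 0 range through 1 library, iWAT539 at day 2 and iWAT555 at day 4. The log2 change was 0.90 (SE 0.51) at day 2 and 1.55 (SE 0.47, adjusted p = 0.474) at day 4. In eWAT it was at 33.6, 64.2 and 65.0 CPM at day 0, at 100, 164 and 125 CPM at day 2 and at 81.2, 46.7 and 110 CPM at day 4. Day 2 lay above day 0 in every library (1.26, SE 0.44, adjusted p = 1), and day 4 overlapped both. The 5 of 6 testis and epididymis markers with a row, none at 0 in eWAT, summed there to 39.2 to 233 CPM at day 0, 152 to 355 CPM at day 2 and 311 to 378 CPM at day 4. Their part in the eWAT values of Idi1 and Sc5d was not tested.

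**Figure D1:**
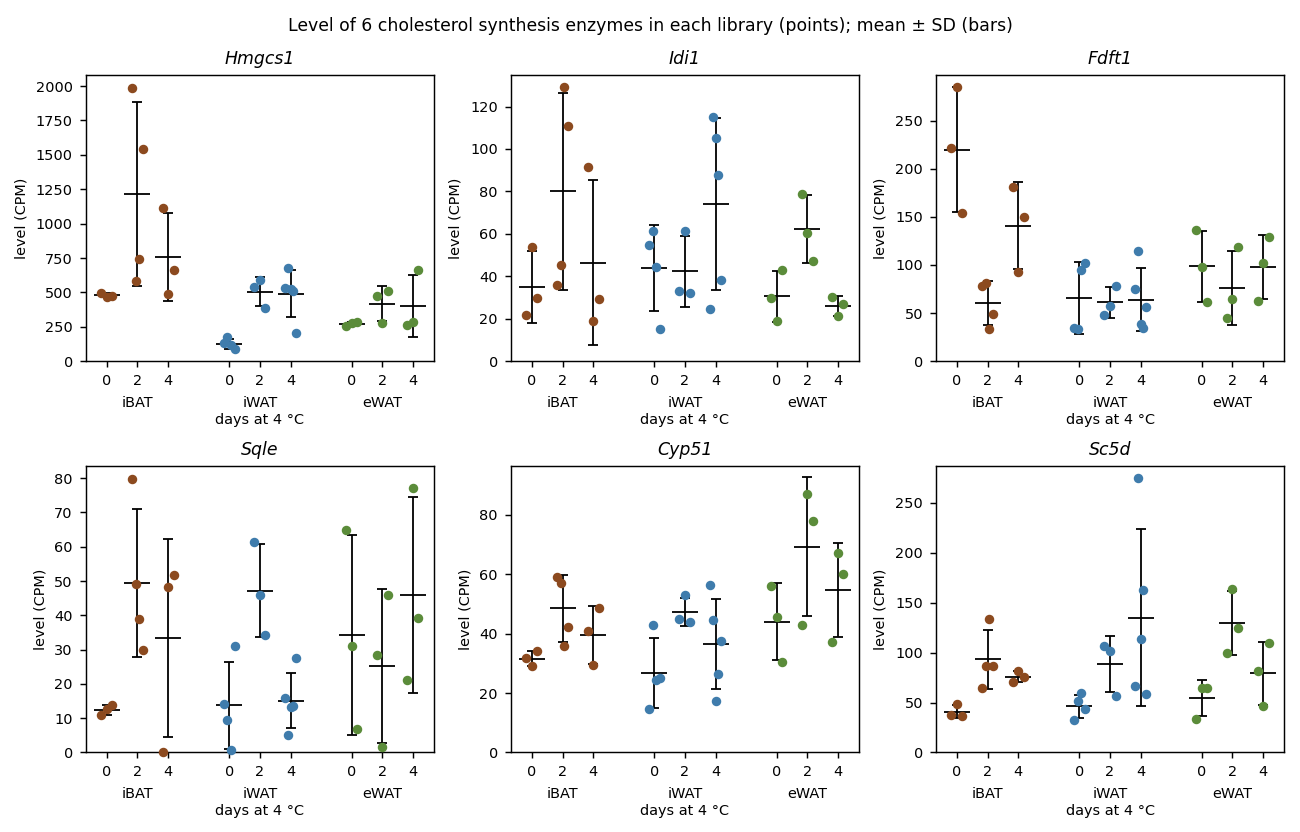
Level in CPM (linear axis from 0) of the 6 enzymes that passed the filter, with 1 point per library and bars for the mean ± SD, by depot and days at 4 °C. Hmgcs1 in iWAT stands at 86.7 to 173 CPM at day 0 and at 206 CPM or more in every cold library, Fdft1 is lowest in iBAT at day 2, and the Sqle point at 0 is iBAT548, which has no value.

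Over the 9 groups, most neighbours in the order of mean levels overlapped. Hmgcs1 was highest in iBAT at day 2 (1215 ± 666 CPM, SD, n = 4) and lowest in iWAT at day 0 (128 ± 36.0 CPM, SD, n = 4), and 7 of its 8 neighbouring pairs overlapped, the exception being eWAT over iWAT at day 0. Sc5d was highest in iWAT at day 4 (135 ± 88.8 CPM, SD, n = 5) and lowest in iBAT at day 0 (40.6 ± 6.55 CPM, SD, n = 3), and the exception among its 8 pairs was iBAT at day 4 over eWAT at day 0. For Idi1, Fdft1, Sqle and Cyp51 all 8 neighbouring pairs overlapped.

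The 6 members tested passed edgeR's test in none of the cold comparisons. In iBAT at day 2 this was 0 of 6 where 0.157% of all 8270 genes passed. At day 4 in iBAT, and at both days in iWAT and eWAT, it was 0 of 6 where 0% of genes passed, as for day 4 against day 2 in each depot. At an unadjusted p under 0.05 the members were Hmgcs1, Fdft1 and Sc5d in iBAT at day 2, Sc5d in iBAT at day 4, Hmgcs1 and Sqle in iWAT at day 2, Hmgcs1 and Sc5d in iWAT at day 4 and Idi1 and Sc5d in eWAT at day 2. The share of all genes tested that had such a p was 12.3% and 7.04% in iBAT, 10.7% and 8.27% in iWAT and 1.06% and 2.76% in eWAT at days 2 and 4. DESeq2 called 2 of them in iBAT at day 2, where it called 1.94% of the genes it was given. It called Hmgcs1 in iWAT at day 2, where it called 0.755%, and at day 4, where it called 0.335%. It called none in the other cold comparisons. The DESeq2 shares are over 13933 rows in iBAT and 16418 in iWAT. No filter on low counts was applied to these, so they are unlike the shares of edgeR. For day 4 against day 2, the members at an unadjusted p under 0.05 were Fdft1 in iBAT, Sqle in iWAT and Idi1 in eWAT, 1 of 6 in each, beside 3.18%, 5.21% and 4.34% of all genes.

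Members whose libraries did not overlap with day 0 were 5 of 6 in iBAT at day 2, where 15.7% of all genes tested did not overlap. Hmgcs1, Sqle, Cyp51 and Sc5d were the higher ones and Fdft1 the lower. At day 4 in iBAT it was Sc5d alone, 1 of 6, beside 19.1% of genes. In iWAT it was Hmgcs1, Sqle and Cyp51 at day 2 beside 12% of genes, and Hmgcs1 alone at day 4 beside 1.99%. In eWAT it was Idi1 and Sc5d at day 2 beside 4.79%, and none at day 4 beside 9.03%. The share of members was above that of all genes in 4 of these 6 comparisons and below it in iBAT and eWAT at day 4.

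The median log2 change of the 6 members was positive in each of the 6 comparisons with day 0. It was 1.29 at day 2 and 0.69 at day 4 in iBAT, against 0.01 and -0.04 over all genes tested. In iWAT it was 0.85 and 0.61, against -0.08 and -0.01, and in eWAT 0.65 and 0.35, against 0.01 and -0.01. Members with a positive change numbered 5, 5, 4, 5, 4 and 4 of 6 in that order, where 45.8% to 50.5% of all genes were positive. The days of a depot share their day 0 libraries, so these 6 values are not independent of each other. In iBAT at day 4 the median was 0.32 without iBAT539 and iBAT548. Over the settings other than leaving out 1 library, medians moved by at least the within-group spread of library means (0.28) in 3 fits. They stayed within it in 41. With 1 library left out these numbers were 2 and 60.

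**Figure D2:**
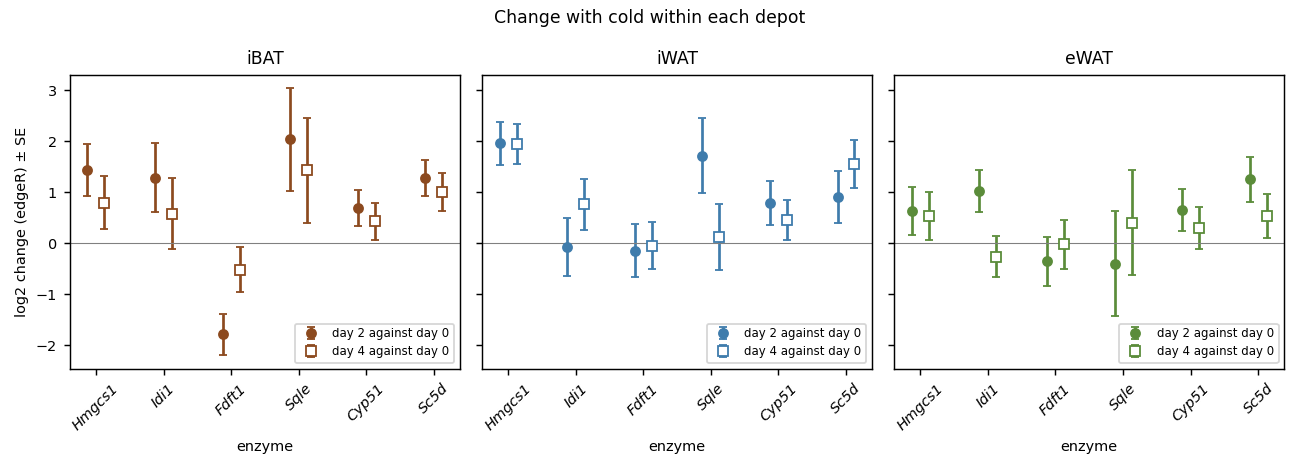
Log2 change (edgeR) ± SE of the 6 enzymes at day 2 (filled) and day 4 (open) against day 0 in each depot. Hmgcs1 in iWAT stands near 1.95 at both days, Fdft1 in iBAT at day 2 is at -1.79, and no change passed the test over all genes.

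Whether a cold change differed between depots was tested in 1 fit of all libraries. No member passed for either day or any pair of depots, and 0% of all genes did. The Fdft1 change at day 2 in iBAT minus that in iWAT was -1.75 on the log2 scale (SE 0.67, unadjusted p = 0.0141, adjusted p = 0.45). The Hmgcs1 change in iWAT minus that in eWAT was 1.37 (SE 0.63, adjusted p = 0.777) at day 2 and 1.38 (SE 0.60, adjusted p = 1) at day 4. At an unadjusted p under 0.05 these were joined by Fdft1 for iBAT against eWAT at day 2 and Hmgcs1 for iBAT against iWAT at day 4, and DESeq2 called no member. The share of all genes with such a p was 10.4%, 4.29% and 5.33% at day 2 and 5.76%, 4.03% and 4.04% at day 4, for iBAT against iWAT, iBAT against eWAT and iWAT against eWAT.

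The 3 differences that passed edgeR's test were between depots on the same day. At day 0 Hmgcs1 was higher in iBAT (478 ± 14.7 CPM, SD, n = 3) than in iWAT (128 ± 36.0 CPM, SD, n = 4), a log2 gap of 1.90 (SE 0.43, adjusted p = 0.00259). Fdft1 was also higher in iBAT (220 ± 65.1 CPM, SD, n = 3) than in iWAT (66.1 ± 37.4 CPM, SD, n = 4), by 1.74 (SE 0.47, adjusted p = 0.0113). These 2 of 6 stood beside 17.9% of all genes that passed in this comparison, where the median over all genes was -0.18. At day 2 Hmgcs1 was higher in iBAT than in eWAT (419 ± 127 CPM, SD, n = 3) by 1.54 (SE 0.45, adjusted p = 0.0181), 1 of 6 beside 17.8% of genes and a median over all genes of -0.31. Without iBAT539 and iBAT548 it was 1.43 (adjusted p = 0.0353).

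Hmgcs1 in iBAT against iWAT at day 0 passed in each of the 14 settings run, edgeR and DESeq2, with adjusted p from 0.00053 to 0.0201. Fdft1 in the same comparison passed in 13 of 14 and was lost without iBAT517, at 1.51 (adjusted p = 0.0609). Hmgcs1 in iBAT against eWAT at day 2 passed in 12 of 15. It was lost with total counts as the only scaling (1.06, adjusted p = 0.076), without iBAT532 (1.19, adjusted p = 0.0712) and without eWAT538 (1.31, adjusted p = 0.0999). The skeletal muscle markers summed to 13371 to 42054 CPM in iBAT at day 0 and to 35.7 to 2272 CPM in iWAT. Other lists also stood apart in this pair. In the same order, brown adipocyte markers summed to 8769 to 10907 and 88.7 to 1405 CPM. Lymphocyte markers summed to 6.81 to 16.9 and 1492 to 2598 CPM, and macrophage markers to 52.1 to 153 and 206 to 475 CPM. The part of these markers in the differences that passed was not tested. Ctsb, which Fdft1 overlaps, stood at 0.48 (SE 0.71, adjusted p = 0.664) in iBAT against iWAT at day 0.

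No member passed the other 7 depot comparisons in edgeR, where at most 1 of 6 in each had an unadjusted p under 0.05. Of all genes, 32%, 22.8% and 21.5% had such a p at day 0 for iBAT against iWAT, iBAT against eWAT and iWAT against eWAT, 28.4%, 31.8% and 24.9% at day 2 and 33%, 33% and 23.8% at day 4. The share of all genes passing was 10.3% for iBAT against eWAT and 7.81% for iWAT against eWAT at day 0, 15.6% for iBAT against iWAT and 10.2% for iWAT against eWAT at day 2, and 17.6%, 18% and 9.94% at day 4 for iBAT against iWAT, iBAT against eWAT and iWAT against eWAT. Hmgcs1 in iBAT against iWAT at day 2 came just short of passing, at 1.26 on the log2 scale (SE 0.44, adjusted p = 0.0522). Fdft1 in the same pair at day 4 stood at 1.14 (SE 0.44, adjusted p = 0.0744), and Idi1 in iWAT against eWAT at day 4 at 1.5 (SE 0.58, adjusted p = 0.0999). DESeq2 called Hmgcs1 and Fdft1 in iBAT against iWAT at day 0 (16% of genes), Hmgcs1 in the same pair at day 2 (13.4%), Fdft1 at day 4 (16%) and Hmgcs1 in iBAT against eWAT at day 2 (14.8%). These shares are over 17334 rows, without the filter on low counts.

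At day 0 the libraries did not overlap for Hmgcs1 and Fdft1 in iBAT against iWAT, where 30.3% of all genes did not, and for the same 2 genes in iBAT against eWAT, where 33.8% did not. In iWAT against eWAT, Hmgcs1 was the one such member, at -1.09 on the log2 scale (SE 0.43, adjusted p = 0.121), beside 19.3% of genes. The other 4 enzymes, Idi1, Sqle, Cyp51 and Sc5d, overlapped in each pair of depots at day 0.

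**Figure D3:**
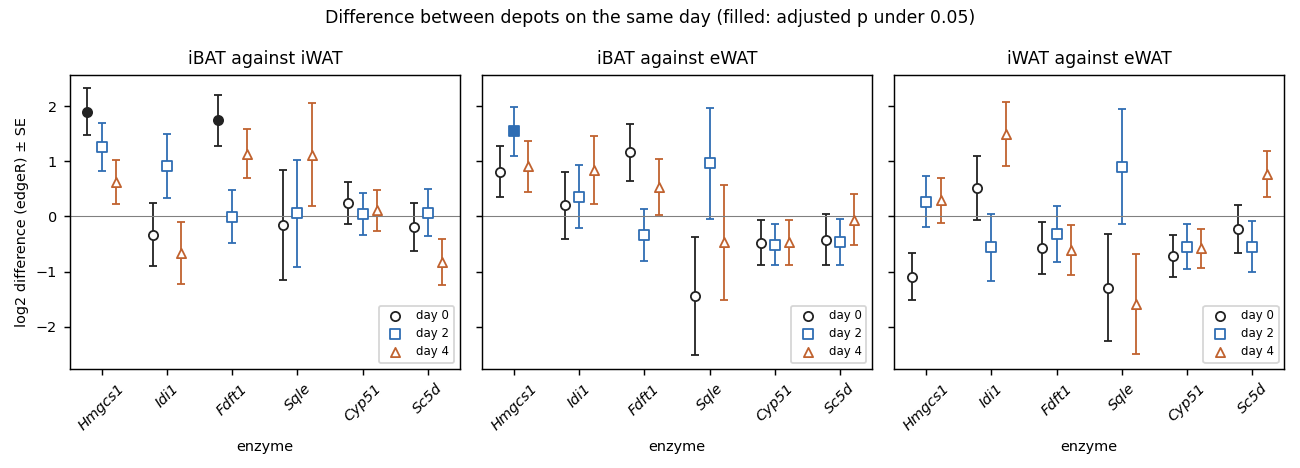
Log2 difference (edgeR) ± SE of the 6 enzymes between 2 depots at days 0, 2 and 4, first depot minus second; filled symbols passed the test over all genes. Hmgcs1 and Fdft1 pass for iBAT against iWAT at day 0, at 1.90 and 1.74, and Hmgcs1 for iBAT against eWAT at day 2, at 1.54.

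The other genes of the pathway gave no call in edgeR in any cold comparison. Of 13 further cholesterol synthesis enzymes 11 were tested, and 4 of them had an unadjusted p under 0.05 in iBAT at day 2, among them Msmo1 and Nsdhl, beside 12.3% of all genes. Nsdhl, a sterol demethylation enzyme, stood at 1.56 (SE 0.44, adjusted p = 0.407) in iBAT at day 4. Acat2, the thiolase that acts just before Hmgcs1, stood at 1.84 (SE 0.52, adjusted p = 0.302) in iWAT at day 2. The median change over the 11 was 0.33 and -0.13 in iBAT, 0.06 and 0.27 in iWAT and 0.39 and 0.25 in eWAT at days 2 and 4, below that of the 6 members in each.

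Among the genes reported here, DESeq2 called Msmo1 and Nsdhl in iBAT at day 2 and Acat2 in iWAT at day 2. At an unadjusted p under 0.05, edgeR had 3 of the 11 in iBAT at day 4 beside 7.04% of all genes, 3 and 2 in iWAT at days 2 and 4 beside 10.7% and 8.27%, and 1 and 1 in eWAT beside 1.06% and 2.76%. Of the SREBP machinery it had none in any cold comparison.

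At day 0, Acat2 and Msmo1 differed between iBAT and iWAT, in opposite directions. Acat2 was higher in iBAT by 2.30 (SE 0.52, adjusted p = 0.00229), as Hmgcs1 was. Msmo1, a sterol methyl oxidase, was lower in iBAT, at -1.29 (SE 0.45, adjusted p = 0.0443), and also against eWAT, at -1.42 (adjusted p = 0.0498).

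Of 7 genes of the SREBP machinery 5 were tested, and none passed edgeR's test in any comparison. Srebf2, the gene of SREBP-2, was at 4.84 ± 0.963 CPM (SD, n = 3) in iBAT and 21.3 ± 6.00 CPM (SD, n = 4) in iWAT at day 0, a log2 difference of -2.13 (SE 0.78, adjusted p = 0.059), which DESeq2 called. Of 8 genes of sterol efflux, esterification and LXR tested, 2 were lower in iBAT than in iWAT at day 0, the sterol exporter Abcg1 at -2.71 (SE 0.41, adjusted p = 4.37e-05) and Soat1, the acyltransferase that esterifies cholesterol, at -2.46 (SE 0.68, adjusted p = 0.0123). These 2 of 8 stood beside 17.9% of all genes that passed and a median over all genes of -0.18, the list's own median being -0.71. Both were also lower at day 2 and day 4 in this pair, as was Apoe, a protein component of lipoproteins (-1.41 and -1.44). These were 3 of 8 on each day beside 15.6% and 17.6% of all genes. Abcg1 was also higher in iWAT than in eWAT at day 0 (2.24, SE 0.4, adjusted p = 0.000529), 1 of 8 beside 7.81%. It was higher there at day 4 too (1.5, SE 0.38, adjusted p = 0.0103), 1 of 8 beside 9.94%. In iBAT against eWAT none of the 8 passed at day 0. Lower in iBAT were the exporter Abca1 and Apoe at day 2 and Apoe and Soat1 at day 4, beside 17.8% and 18%. The part of macrophages and lymphocytes in these differences was not tested.

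Among 5 tested genes of sterol uptake and transport and 7 of the isoprenoid branch, none passed edgeR's test at day 0, where DESeq2 called Stard4, a sterol carrier, in iBAT against iWAT. In these lists the genes that passed edgeR's test on later days were Ggps1, Pdss2 and Lrp1. Ggps1, which makes the geranylgeranyl diphosphate of protein prenylation, was lower in iBAT than in iWAT at day 2 (-1.18, SE 0.40, adjusted p = 0.042) and day 4 (-1.29, SE 0.40, adjusted p = 0.025). It was 1 of 7 isoprenoid genes each time, beside 15.6% and 17.6% of all genes. In iBAT against eWAT at day 2 it was lower as well (-1.16, SE 0.40, adjusted p = 0.0431) and Pdss2, a subunit of the enzyme that makes the ubiquinone side chain, was higher (2.97, SE 1.02, adjusted p = 0.0421), 2 of 7 beside 17.8% of all genes. Lrp1, a lipoprotein receptor, was lower in iWAT than in eWAT at day 2 (-1.56, SE 0.46, adjusted p = 0.031), 1 of 5 beside 10.2% of all genes.

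Within groups, Idi1 and Sqle followed the library score in opposite directions in each depot. Over the 31 libraries, after each group's mean was taken off, the correlation of log2 CPM with the score was 0.92 for Idi1 and -0.75 for Sqle. In the single depots it was 0.97, 0.95 and 0.81 for Idi1 and -0.82, -0.67 and -0.76 for Sqle in iBAT, iWAT and eWAT. With the points of iBAT539 and iBAT548 left out it was 0.90 and -0.70, but the group means taken off still included them. For Sqle the mean of iBAT at day 4 holds the missing value of iBAT548 entered as 0, so -0.75, -0.82 and -0.70 all carry it. Over all 31 libraries the other members gave 0.42 for Sc5d, 0.17 for Hmgcs1, -0.33 for Cyp51 and -0.34 for Fdft1. In iBAT, iWAT and eWAT these were 0.44, 0.59 and 0.18 for Sc5d, 0.17, 0.54 and -0.41 for Hmgcs1, -0.37, -0.21 and -0.56 for Cyp51 and -0.05, -0.26 and -0.84 for Fdft1. In eWAT, over 9 libraries, Fdft1 thus stood as far from 0 as Idi1 and Sqle did. The points share their libraries' depth and scaling, and the members are among the genes the axis was found from.

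The mean score was not equal on all days. At days 0, 2 and 4 it was -0.24, 0.20 and -0.03 in iBAT, 0.13, -0.37 and 0.12 in iWAT and -0.07, 0.29 and -0.22 in eWAT. With it as a covariate, the Idi1 change in iWAT at day 2 went from -0.08 to 0.94 and the Sqle change in eWAT at day 2 from -0.40 to 0.57, neither past the threshold. Its part in the results was not tested further.

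The 6 members did not vary as 1 unit within groups. Of their 15 pairs 7 were positively and 8 negatively correlated over the 31 libraries after the group means were taken off, with a median of -0.01. The range ran from -0.54 for Idi1 with Sqle to 0.55 for Fdft1 with Cyp51. Fdft1 and Cyp51, one before and one after lanosterol, were thus the pair most alike, and the neighbours Fdft1 and Sqle stood at -0.06.

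**Figure D4:**
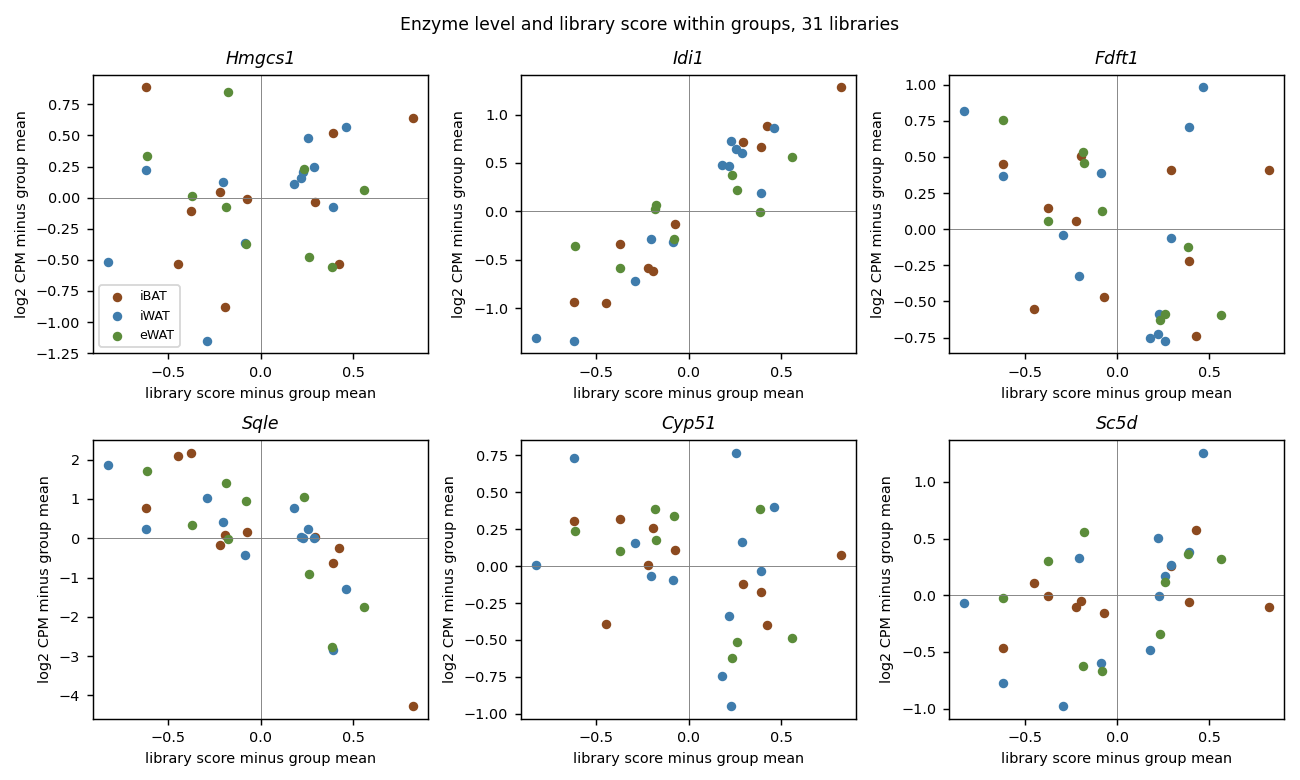
Log2 CPM of each enzyme against the library score, both minus the mean of the library's group, for 31 libraries coloured by depot. Idi1 is higher in libraries with a high score (correlation 0.92) and Sqle lower (-0.75), with the lowest Sqle point being iBAT548, which has no value.

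Among 7932 genes tested in all 3 depots, those most like the mean log2 CPM of the 8 members over the 31 libraries, after depot means were taken off, were Rpp14, Ankrd9 and Comtd1 with correlations of 0.77, 0.76 and 0.76. Smyd4, Zbtb7a, Pdhx, Slc16a1, Cycs, Trmu and Bysl followed at 0.73 to 0.69. None of the 10 is in the lists of sterol genes described here. They are a description over libraries that share depots and days.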

How the data were processed

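RNA of 3 mouse fat depots after 0, 2 or 4 days of cold was sequenced, and the authors deposited whole-number counts per RefSeq transcript, 1 table a depot. Per the submitters' processing notes, cutadapt, BWA and build mm10 were used; versions, the counting step and its use of strand are not given in the sources used here. A missing value was entered as a count of 0. Of 17334 accessions 17030 were named by RefSeq and 105 by GENCODE, 199 had no symbol, and for each symbol the row with the highest total was used for the members.

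In R 4.3.3, edgeR 4.0.16 (TMM scaling, filterByExpr with a minimum count of 10, robust quasi-likelihood F-test, two-sided) was fitted once per depot for cold changes and once over all 31 libraries for depots, with Benjamini-Hochberg adjustment over all genes tested and a threshold of 0.05. The code was tested on simulated data. Standard errors are on the log2 scale. Levels are CPM on TMM-scaled library sizes, and levels per length use GENCODE transcript lengths. No 2 libraries of a group agreed within sampling noise (chi-square per degree of freedom 11.8 to 187 over 40 pairs). Depth was 1502823 to 5527239 counts a library; reads carry no molecular identifiers, so floors cover counting error only.

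The library score is a library's projection on the first within-group principal component found in the other 2 depots. Named genes were the 8 members, up to 3 of each other list past the threshold or otherwise the 1 with the smallest adjusted p, the 10 genes most like the members' mean, and Adipoq, Ucp1 and Lep as checks; of these the text gives those it needs, and some results of the other enzymes are not reported here. Members, lists and rules were chosen with earlier results of these data known. Alternatives were RLE or total-count scaling, no filter, DESeq2 1.42.0, 1 fit of all libraries, counts summed per symbol, the score as a covariate, no sparse iBAT libraries, each library left out, and the label number as a block.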

Additional observations from a re-analysis of the deposited data

How the results depend on the processing

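Of the log2 differences recomputed, 455 kept their sign and side of the threshold under settings other than leaving out 1 library, 10 newly passed, 1 was lost and 8 changed sign; with 1 library left out these numbers were 577, 5, 3 and 25. Members past the threshold went from 0 to 2 with DESeq2 and to 1 without both sparse libraries in iBAT at day 2, and from 0 to 1 with DESeq2 in iWAT at day 2 and at day 4. For iBAT against iWAT they went from 0 to 1 with RLE or DESeq2 at day 2, and from 0 to 1 with total counts alone (Sc5d, -1.13), the library score (Fdft1) or DESeq2 (Fdft1) at day 4. For iBAT against eWAT at day 2 they went from 1 to 0 with total counts alone. The causes were not tested.

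With 1 library left out the number of members past the threshold was 0 to 1 in iBAT at day 2 (1 without iBAT548), 0 to 1 in iWAT at day 4 (1 without iWAT555), 1 to 2 for iBAT against iWAT at day 0 (1 without iBAT517), 0 to 1 at day 2 (1 without iBAT534 or iBAT535) and 0 to 1 at day 4 (1 without iWAT550), and 0 to 1 for iBAT against eWAT at day 2 (0 without iBAT532 or eWAT538).

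None of the values that changed sign had passed the threshold. With the library score as a covariate Idi1 was at -0.08 in iBAT at day 4, 0.94 in iWAT at day 2 and 0.30 for iBAT against iWAT at day 0, and Sqle was at 0.57 in eWAT at day 2. Without both sparse libraries Idi1 was at -0.50 in iBAT at day 4. With total counts alone Cyp51 was at -0.13 for iBAT against iWAT and Idi1 at -0.25 for iBAT against eWAT, both at day 0. Leaving out 1 library, Idi1 ranged from -0.50 to 1.01 in iBAT at day 4, -0.41 to 0.09 in iWAT at day 2, -0.49 to 0.12 in eWAT at day 4 and -0.26 to 0.53 for iBAT against eWAT at day 0. Fdft1 ranged from -0.41 to 0.16 and -0.39 to 0.26 in iWAT at days 2 and 4 and from -0.28 to 0.30 in eWAT at day 4. Sqle ranged from -0.25 to 0.90 in iWAT at day 4, -1.16 to 0.42 and -0.19 to 1.28 in eWAT at days 2 and 4 and -0.53 to 0.59 for iBAT against iWAT at day 0. Hmgcs1 in eWAT at day 4 ranged from -0.03 to 0.78.

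Label numbers recur across depots within a day. Libraries of the same number did not deviate together (correlations -0.55 to 0.42 over 23 pairs, 7 over 0.1). This cannot show whether equal numbers mark the same animal, which the labels do not say. With the number as a replicate block the 3 depot calls stayed, and Sqle for iBAT against iWAT at day 0 was at 1.28. No paired analysis was possible for cold changes because no number recurs across days. Fdps and Lss had too few counts for a difference to be detectable, and whether Fdps reads fell on its other transcript was not tested.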
